A study of Mus musculus with 157 samples.

Results

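The Tfeb transgene was examined in unstimulated mouse bone marrow-derived macrophages, through the 5 PBS libraries of an 11-library experiment in a series of 157 samples. They are 3 libraries from Tfeb-Tg macrophages and 2 from wild-type macrophages (labelled TfebWT, C57BL/6 background), chosen by their column names, and all 24940 genes of the table were considered. Marrow of femurs and tibias was grown with 16 ng/mL M-CSF, the growth factor that drives macrophage formation, and the cells were replated on day 6. Both groups received PBS, the vehicle of the particle treatments. The other 6 libraries of the experiment, 3 per genotype, received 250 ug/mL monosodium urate crystals (MSUc), the crystals of gout. The promoter that drives the transgene, the number of founder lines, the age of the mice and whether libraries came from separate mice are not given in the sources used here. P-values therefore measure the spread between these libraries, which may be technical.

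TFEB belongs to the MiT/TFE family of basic helix-loop-helix leucine zipper factors, with TFE3, MITF and TFEC. In fed cells the kinase mTORC1, acting at the lysosome with the Rag GTPases and folliculin, holds TFEB in the cytoplasm. When that hold is released, TFEB enters the nucleus and binds E-box sequences with the core CACGTG at genes of the lysosome and of autophagy.

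Levels are TPM, a unit of transcript abundance relative to a fixed library total, for 1 RefSeq transcript per gene, corrected for transcript length. Of the 24940 genes, 11991 reached 1 TPM in at least 2 libraries and were tested with limma on log2(TPM + 1), with a call at a Benjamini-Hochberg adjusted p under 0.05. The PBS libraries held 7.6 and 20.8 M recovered reads in wild type, and 11.2, 22.1 and 11.7 M in Tfeb-Tg. Of the genes tested, 55 were higher (0.459%) and 31 lower (0.259%) in Tfeb-Tg, against 871 at an unadjusted p under 0.05. The median change was 0.79 among the rises and -0.83 among the falls on the log2 scale, and 26 of the 86 changed by at least 1. Over all genes tested the median was -0.01. In all 86 called genes the libraries of the 2 genotypes did not overlap.

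Tfeb itself (chr17:47785744-47792416, mm10) was at 44.4 and 43.7 TPM in wild type and at 86.5, 80.0 and 75.1 TPM in Tfeb-Tg. All 3 transgenic libraries lay above both wild-type libraries, by 1.83-fold in the means, a log2 change of 0.85 ± 0.14 (SE, limma adjusted p = 0.020). One value per gene does not separate transcripts of the transgene from those of the endogenous locus. The other family members were not called: Tfe3 was at 63.2 and 60.2 TPM in wild type and 59.4 to 62.0 TPM in Tfeb-Tg, a log2 change of -0.02 ± 0.09 (SE). Mitf (-0.18 ± 0.13, SE) and Tfec (0.19 ± 0.19, SE) had overlapping levels in the 2 genotypes and were not called either. The excess of Tfeb was larger under MSUc, where wild-type libraries held 25.5 to 30.7 TPM and Tfeb-Tg libraries 201, 299 and 240 TPM, an 8.70-fold difference. The change in the transgene effect between MSUc and PBS was 2.21 ± 0.19 on the log2 scale (SE, limma adjusted p = 0.00086).

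**Figure D1:**
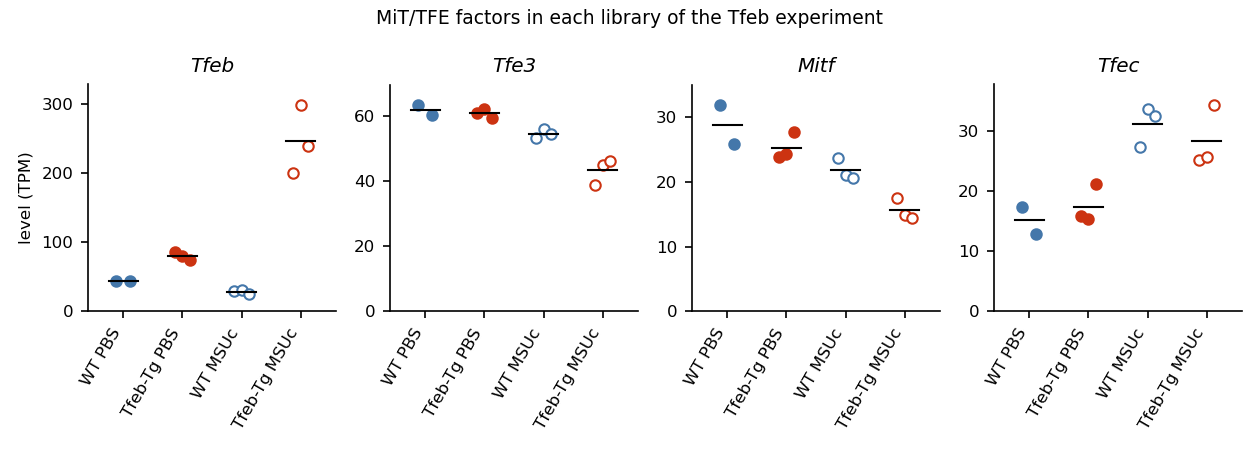
Levels in TPM (vertical axes, from 0) of Tfeb, Tfe3, Mitf and Tfec in each library of the Tfeb experiment, with blue points for wild type, red for Tfeb-Tg, filled for PBS, open for MSUc, and a bar at each group's mean. Tfeb stood at 75.1 to 86.5 TPM in Tfeb-Tg under PBS against 43.7 and 44.4 TPM in wild type, and reached 201 to 299 TPM in Tfeb-Tg under MSUc.

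The cells carried the expression of macrophages in both genotypes. Csf1r, the M-CSF receptor, was at 1202 and 1218 TPM in wild type and 935 to 1070 TPM in Tfeb-Tg, and Cd68 was at 1717 and 1840 TPM against 1720 to 1817 TPM. The summed level of the 21 listed macrophage genes was 19646 and 19714 TPM in wild type and 15686 to 16660 TPM in Tfeb-Tg, most of it from Lyz2. The 9 erythroid markers summed to at most 0.29 TPM, and lymphoid markers are given below with Cd4. Neutrophil markers summed to 34.3 and 41.6 TPM in wild type and to 35.9, 38.6 and 37.8 TPM in Tfeb-Tg, largely from Csf3r, with Ly6g at 0 throughout. The 12 dendritic cell markers summed to 6.69 and 8.03 TPM in wild type and 5.73 to 7.62 TPM in Tfeb-Tg. The 12 stromal markers, among them Col1a1 and Sparc, summed to 33.5 and 39.5 TPM in wild type and 17.5 to 20.5 TPM in Tfeb-Tg. None of the 9 stromal genes tested was called, all 9 had negative values, and their median was -0.66. Under MSUc 6 of the 9 were called lower in Tfeb-Tg, with a median of -1.15, where 1.43% of all genes tested were called lower. The part of stromal RNA in the results below was not tested. In bulk RNA fewer cells of a type and less RNA per cell cannot be told apart.

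The largest rise was Mgll, monoacylglycerol lipase, which cleaves monoacylglycerols to glycerol and free fatty acids. It was at 4.15 and 4.74 TPM in wild type and 18.8, 18.2 and 19.7 TPM in Tfeb-Tg. The means differed 4.26-fold and the log2 change was 1.87 ± 0.16 (SE, limma adjusted p = 0.00025). Its promoter window is shown with those of Bhlhe41 and Ctsl because these called genes, named by the rule for naming, have a window at the table's transcript start with the E-box core that TFEB and its relatives recognise. The windows of Gyg and Gadd45b, called higher, and of Mfsd1 and Tnfaip3, called lower, hold it too and are not printed. Those of Mfsd1 and Tnfaip3 also hold the longer sequence TCACGTGA, which the printed windows lack. The window of Mcoln2, called higher, holds CACGTG but belongs to a start 341 bases from the table's. The windows run from 250 bases before to 50 bases after the start, from RefSeq on GRCm38.p6, and CACGTG, which reads the same on both strands, is in capitals. Mgll lies on the plus strand (chr6:88724162-88724461), Bhlhe41 (chr6:145865371-145865670) and Ctsl (chr13:64370471-64370770) on the minus strand, and each sequence is given in the direction of transcription.
Mgll: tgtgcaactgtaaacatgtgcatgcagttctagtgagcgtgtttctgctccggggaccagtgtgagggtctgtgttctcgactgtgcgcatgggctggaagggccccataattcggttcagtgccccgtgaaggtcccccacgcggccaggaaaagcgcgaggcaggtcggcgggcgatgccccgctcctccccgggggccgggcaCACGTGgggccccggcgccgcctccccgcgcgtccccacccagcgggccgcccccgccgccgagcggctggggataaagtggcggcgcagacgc
Bhlhe41: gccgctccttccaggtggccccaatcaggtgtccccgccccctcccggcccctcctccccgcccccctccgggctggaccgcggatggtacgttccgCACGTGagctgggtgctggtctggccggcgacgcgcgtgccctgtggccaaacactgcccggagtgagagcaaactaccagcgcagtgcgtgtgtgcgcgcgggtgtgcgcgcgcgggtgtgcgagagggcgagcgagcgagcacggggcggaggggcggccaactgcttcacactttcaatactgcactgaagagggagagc
Ctsl: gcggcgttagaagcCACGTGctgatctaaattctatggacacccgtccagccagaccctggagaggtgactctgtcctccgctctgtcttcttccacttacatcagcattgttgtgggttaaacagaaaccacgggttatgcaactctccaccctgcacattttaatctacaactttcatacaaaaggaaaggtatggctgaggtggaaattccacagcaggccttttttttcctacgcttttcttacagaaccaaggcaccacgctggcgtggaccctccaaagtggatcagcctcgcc
The match began 44 bases before the start in Mgll, 153 in Bhlhe41 and 236 in Ctsl. Mgll and Bhlhe41 were higher and Ctsl lower in Tfeb-Tg. CACGTG occurred in 7.15% of all 32851 RefSeq promoter windows of this length. A window was found for 68.6% of the called genes and 76.6% of those tested, too few to compare their shares.

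Kit, the receptor for stem cell factor, was at 5.10 and 4.74 TPM in wild type and 15.7 to 17.6 TPM in Tfeb-Tg, 3.41-fold higher (log2 change 1.58 ± 0.12, SE, limma adjusted p = 0.00024). Kdr, a receptor for VEGF, was at 11.3 and 12.7 TPM against 27.9, 30.2 and 29.1 TPM, 2.42-fold higher. Cd28, a costimulatory receptor best known from T cells, was abundant at 105 and 83.2 TPM in wild type and 189, 186 and 211 TPM in Tfeb-Tg. Kit, Kdr and Cd28 were each higher in every transgenic library than in either wild-type library, as the rule for naming required. Cd4, the co-receptor of helper T cells, was at 5.69 and 3.30 TPM against 14.1, 14.7 and 11.9 TPM (log2 change 1.44 ± 0.24, SE). The call of Cd4 held in 10 of 15 alternative settings and was lost with the replicate number as a block. Csf1, which encodes M-CSF itself, was at 4.49 and 5.39 TPM against 11.1 to 12.8 TPM, 2.42-fold higher. Gpr162, an orphan receptor, was at 26.5 and 29.3 TPM against 71.5, 74.8 and 69.9 TPM.

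Some of these names are used as markers of other cells, and the other markers of those cells were low. Of the 11 mast cell and basophil markers only Kit was above 1 TPM in any of the 5 libraries, and Fcer1a, Ms4a2, Cma1, Mcpt4 and Mcpt8 were at 0 in all. The list summed to 5.33 and 5.37 TPM in wild type and 16.1 to 18.4 TPM in Tfeb-Tg. Among the 12 B and T cell markers in the table, Cd4 and Cd79b (6.34 and 3.31 TPM in wild type, 3.93 to 5.92 TPM in Tfeb-Tg) were the members above 1 TPM, Ms4a1 and Pax5 were at 0 in all 5 libraries, Cd3d, Cd3e and Cd3g stayed under 1 TPM, and the sums were 12.9 and 6.87 TPM against 17.8 to 21.2 TPM. The 10 osteoclast markers summed to 171 and 197 TPM in wild type and 248 to 267 TPM in Tfeb-Tg. Most of that sum was Atp6v0d2. Of the 7 tested, 5 had values above 0, with a median of 0.23: Ctsk was at 9.35 and 10.9 TPM against 14.3, 11.3 and 18 TPM, not called, and Acp5 at 11.0 and 10.4 TPM against 9.03 to 11.4 TPM. Calcr and Oscar were at 0. The part of osteoclast-like cells in the rise of Atp6v0d2 was not tested.

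Enzymes and growth regulators were among the other large rises. Cdkn1c, the cyclin-dependent kinase inhibitor p57, was at 39.7 and 51.5 TPM in wild type and 150, 172 and 136 TPM in Tfeb-Tg, 3.35-fold higher (log2 change 1.73 ± 0.13, SE, limma adjusted p = 0.00024). Gpx3, the secreted glutathione peroxidase, was at 31.0 and 39.0 TPM against 98.3, 101 and 102 TPM, a 2.87-fold difference. Dio2, the deiodinase that activates thyroid hormone, was at 40.2 and 35.6 TPM against 89.4, 87.0 and 99.0 TPM. In all 3 the lowest transgenic library stood above the highest wild-type library, as the rule for naming required. Entpd1, which encodes the ectonucleotidase CD39, was at 60.2 and 53.2 TPM against 115, 109 and 109 TPM. Padi2, a peptidylarginine deiminase, was at 19.9 and 24.9 TPM against 46.4, 48.5 and 45.3 TPM. Gpcpd1, a glycerophosphocholine phosphodiesterase, was at 32.4 and 24.3 TPM against 57.6, 52.4 and 62.8 TPM. By the same rule, no transgenic library came down to the wild-type range in these 3 enzymes. The stress gene Gadd45a rose by 1.01 ± 0.13 on the log2 scale (SE). Padi2 and Gadd45a each overlap a tested gene on the opposite strand, and the use of strand in counting is not given in the sources used here.

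Genes of the lysosome are the best known targets of TFEB. Of 92 tested members of 5 lists (V-ATPase, proteases, glycosidases and sulfatases, lipid hydrolysis, membrane proteins), 3 were higher (3.26%) and 2 lower (2.17%), where 0.459% and 0.259% of all genes were, with a median log2 change of -0.05 against -0.01 over all genes. The median SE of these genes was 0.10 against 0.18 over all genes tested, so these shares were not taken at equal precision. The 3 rises were Mcoln2, a cation channel of the TRPML family at 31.1 and 33.2 TPM against 55.5, 59.5 and 67.9 TPM, and the V-ATPase subunits Atp6v1c1 and Atp6v0d2. Atp6v1c1 rose from 233 and 241 TPM to 303, 309 and 337 TPM (log2 change 0.41 ± 0.07, SE, limma adjusted p = 0.029). Atp6v0d2, a subunit enriched in osteoclasts and some macrophages, was at 151 and 123 TPM against 195, 198 and 213 TPM. The median over the 19 V-ATPase genes tested was -0.08, and 7 of the 19 had values above 0. The calls of Atp6v1c1 and Atp6v0d2 held in 5 and 6 of 15 alternative settings and were lost without any 1 of the PBS libraries, while that of Mcoln2 held in 14. Mcoln1, the relative of Mcoln2 that releases lysosomal calcium, was at 47.4 and 42.4 TPM against 36.0, 36.7 and 33.4 TPM and was not called (limma adjusted p = 0.22).

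The 2 calls lower in these lists were Ctsl and Hgsnat. Ctsl, the cysteine protease cathepsin L, was at 780 and 707 TPM in wild type and 586, 596 and 574 TPM in Tfeb-Tg (log2 change -0.34 ± 0.06, SE, limma adjusted p = 0.037). Hgsnat, which acetylates heparan sulfate for its breakdown, was at 53.4 and 50.4 TPM against 34.9, 34.3 and 33.9 TPM (-0.58 ± 0.09, SE, limma adjusted p = 0.012). Ctsd, cathepsin D, was at 9597 and 10177 TPM against 11847, 12516 and 11024 TPM, without a call (limma adjusted p = 0.33). The groups did not overlap in any of these 3. The call of Ctsl held in 6 of 15 settings, not without any 1 of the PBS libraries, and that of Hgsnat in 10.

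Of 30 autophagy genes tested, Tax1bp1 and Tecpr1 were higher (6.67%, against 0.459% of all genes) and none was lower, with a median of -0.05. Their calls held in 7 and 9 of 15 settings, and both were lost without either wild-type library. Tax1bp1, a cargo receptor, was at 129 and 117 TPM against 178, 177 and 207 TPM, and Tecpr1, which acts in the fusion of autophagosomes with lysosomes, was at 87.1 and 94.9 TPM against 132, 142 and 128 TPM. Sqstm1, the receptor p62, had a log2 change of 0.12 ± 0.09 (SE) and was not called. Of the 15 genes for folliculin, its partners and the Rag GTPases none was called (median 0.03): Rragc was at 147 and 139 TPM against 166, 170 and 188 TPM, and Flcn at 47.9 and 43.1 TPM against 38.3 to 41.7 TPM. Bhlhe41, a repressor of the clock family whose promoter is shown above, was at 37.9 and 40.4 TPM against 60.1, 57.5 and 63.2 TPM (log2 change 0.61 ± 0.08, SE, limma adjusted p = 0.0044). Its paralog Bhlhe40 had a change of 0.12 ± 0.08 (SE) and was not called.

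**Figure D2:**
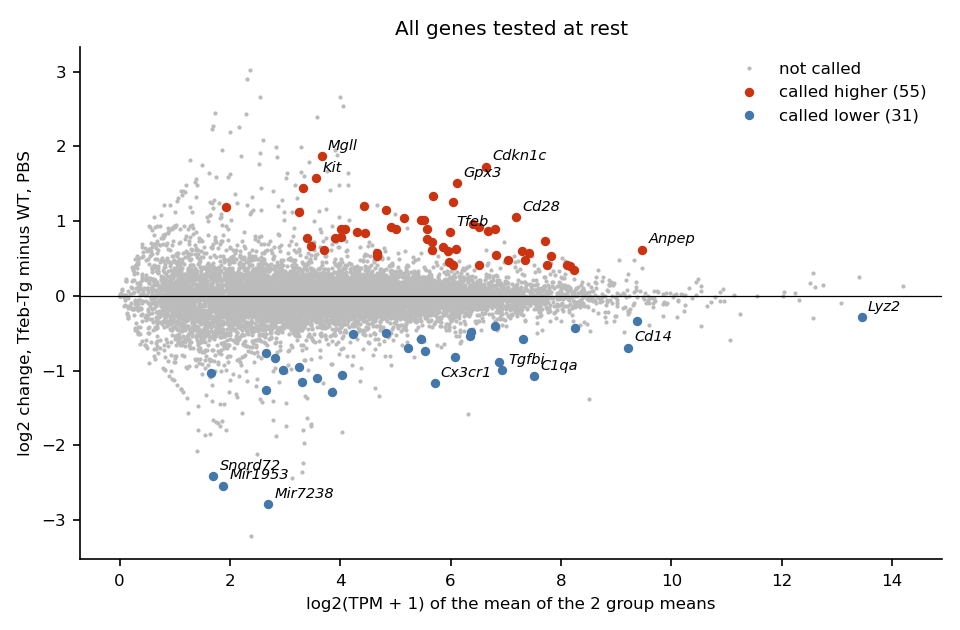
Log2 change between Tfeb-Tg and wild type under PBS (vertical axis) against the level as log2(TPM + 1) (horizontal axis), one point per gene tested, with the 55 genes called higher in red and the 31 called lower in blue. Called genes ran from Mgll at 1.87 to short RNA genes near the bottom, such as Mir7238 at -2.79.

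The falls included genes of the macrophage surface and of complement. C1qa, a chain of complement C1q, was at 228 and 267 TPM in wild type and 117, 119 and 116 TPM in Tfeb-Tg, 2.11-fold lower (log2 change -1.07 ± 0.09, SE, limma adjusted p = 0.00025). Cx3cr1, the fractalkine receptor, was at 75.9 and 67.0 TPM against 29.8, 34.1 and 29.6 TPM, 2.29-fold lower. Cd14, a co-receptor for lipopolysaccharide, was at 648 and 815 TPM against 467, 462 and 425 TPM. The groups did not overlap in these 3, as in all 86 called genes. Lyz2, lysozyme, fell from 12573 and 11993 TPM to 10283, 10237 and 9912 TPM. Of the 20 macrophage identity genes tested, 0 were higher and 3 lower (C1qa, Cx3cr1 and Lyz2, 15% against 0.259% of all genes), with a median of -0.26, and 13 had all transgenic libraries below both wild-type libraries, where 13% of all genes tested did and 11.2% were above. C1qb, at 1642 and 1751 TPM against 1144 to 1387 TPM, was among those not called. The call of Lyz2 held in 3 of 15 settings and was lost under other scaling, the replicate block and without any 1 PBS library, those of C1qa and Cx3cr1 in 14 and 12.

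Of 31 inflammatory genes tested, 5 fell (Il1b, Cxcl2, Tnfaip3, Acod1 and Cd14), 1 rose (Ccl7), and the median was -0.27. These are 16.1% lower and 3.23% higher, against 0.259% and 0.459% of all genes. All the lists, this one included, were chosen with earlier results of these data known, and the difference in shares was not tested. The calls held in 12 of 15 settings for Cxcl2, 9 for Cd14, 6 for Acod1, 5 for Ccl7, 4 for Tnfaip3 and 2 for Il1b, and the last 4 were lost under the replicate block. Cxcl2, a chemokine for neutrophils, was at 10.3 and 8.46 TPM against 4.72, 3.19 and 4.93 TPM, 2.19-fold lower. Acod1, which makes itaconate, was at 51.6 and 63.0 TPM against 39.1, 30.8 and 31.8 TPM. Il1b was low in both genotypes, at 3.36 and 3.13 TPM against 1.21, 0.795 and 1.26 TPM. Ccl7, a chemokine for monocytes, went the other way, at 8.72 and 6.36 TPM against 12.2, 12.4 and 12.8 TPM. Fos, the immediate early transcription factor, was at 80.3 and 89.3 TPM against 49.3, 48.5 and 45.2 TPM (log2 change -0.82 ± 0.10, SE, limma adjusted p = 0.0033). It was the 1 call among 27 immediate early genes (3.7% lower, against 0.259% of all genes, median -0.06). Gclm, a subunit of the enzyme that starts glutathione synthesis, was at 96.3 and 94.7 TPM against 69.6, 58.9 and 68.6 TPM. It was the 1 call among 20 NRF2 targets (5% lower, against 0.259% of all genes, median -0.17). The calls of Fos and Gclm held in 13 and 9 of 15 settings.

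Other genes that fell had no list of their own. Tgfbi, a matrix protein induced by TGF-beta, was at 154 and 168 TPM in wild type and 84.4, 79.3 and 77.3 TPM in Tfeb-Tg, 2.00-fold lower (log2 change -0.99 ± 0.09, SE, limma adjusted p = 0.00053). Olfm1 and Olfml3, which encode secreted olfactomedin-domain proteins, fell by 1.29 ± 0.23 and 1.15 ± 0.18 on the log2 scale (SE). The Notch ligand Jag1 was at 8.58 and 7.50 TPM against 3.94, 4.10 and 4.17 TPM. The 9 stromal markers tested all had values below 0 here. Under MSUc 6 of them were called lower, where 1.43% of all genes tested were. Their part in these falls under either condition was not tested. Pid1, an adaptor linked to insulin signalling, was at 159 and 143 TPM against 80.1, 76.5 and 86.3 TPM. Gpr84, a receptor for medium-chain fatty acids, was at 16.0 and 14.4 TPM against 6.73, 7.30 and 5.69 TPM, and Trib1, a pseudokinase, at 7.75 and 6.12 TPM against 3.51, 3.57 and 3.87 TPM. Mrps2, of the mitochondrial ribosome, fell by 1.06 ± 0.18 and Plxdc2 by 0.95 ± 0.19 on the log2 scale (SE). The calls of Tgfbi and Pid1 held in 14 of 15 settings, those of Jag1 and Gpr84 in 12 and that of Olfml3 in 10. Those of Mrps2, Olfm1, Trib1 and Plxdc2 held in 7, 6, 4 and 4. Without any 1 of the PBS libraries the calls of Olfm1, Trib1 and Plxdc2 were lost. Of all the falls, 0 were called in all 15 settings. With the setting that placed TfebWT MSUc replicate 3 in PBS left aside, 3 were: C1qa, Tgfbi and Pid1. The remaining 3 falls among transcripts under 500 bases, Snord72, Mir1953 and Mir7238, were chosen for naming after their values were seen and rest on few reads.

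**Figure D3:**
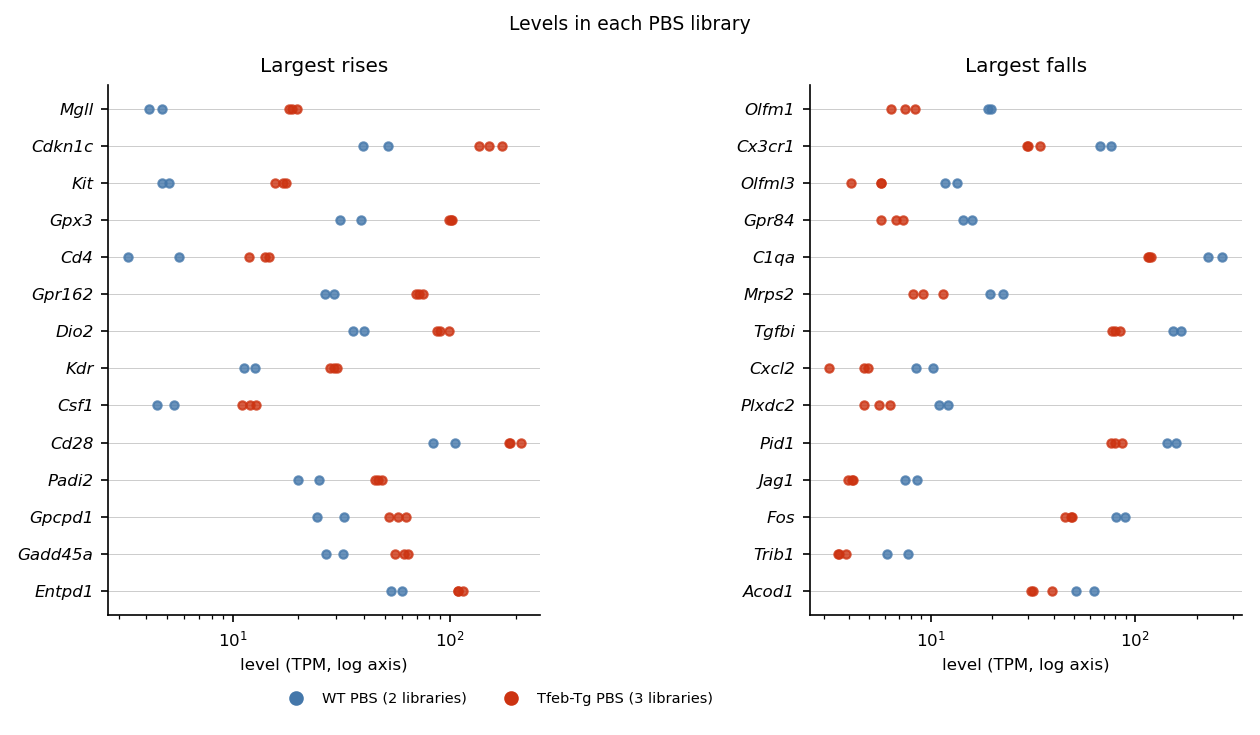
Levels in TPM (horizontal log axes) of the largest rises and falls reported here, with a blue point for each of the 2 wild-type PBS libraries and a red point for each of the 3 Tfeb-Tg PBS libraries. In every row the red and blue points are separate, as the rule for naming required.

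Other lists held at most 1 call. Of 30 interferon-stimulated genes tested, 0 were called in either direction and 1 had a value above 0, with a median of -0.20. All transgenic libraries lay below both wild-type libraries in 14 of the 30, where 13% of all genes tested did. Ifit1 was the furthest down of those named, at 16.2 and 10.4 TPM against 7.82, 5.97 and 6.73 TPM. All 7 MHC class II genes tested had negative values (median -0.24) and none was called. Of 22 genes of cholesterol synthesis and uptake, 18 had values above 0, with a median of 0.15 and 0 calls. All transgenic libraries lay above both wild-type libraries in 8 of the 22, where 11.2% of all genes tested did. Sqle, the squalene epoxidase, was at 34.2 and 35 TPM against 43.6, 44.3 and 44.2 TPM (limma adjusted p = 0.18). Of 16 lipid handling genes Mgll was the 1 call (6.25% higher, against 0.459% of all genes, median 0.04). Fabp5, a fatty acid binding protein, was at 471 and 415 TPM against 646, 623 and 583 TPM (limma adjusted p = 0.062), and Apoe was at 2544 and 2578 TPM against 1847, 1942 and 1368 TPM (limma adjusted p = 0.18). Cell cycle genes had a median of 0.05 with 0 of 24 called, glycolysis genes -0.08 with 0 of 20, and integrated stress response genes -0.09 with 0 of 22. The stress cytokine Gdf15, of the last list, was at 15.2 and 23.8 TPM against 46.8, 43.0 and 36.5 TPM without a call (limma adjusted p = 0.097). No list median given here changed sign under median-of-ratios scaling.

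**Figure D4:**
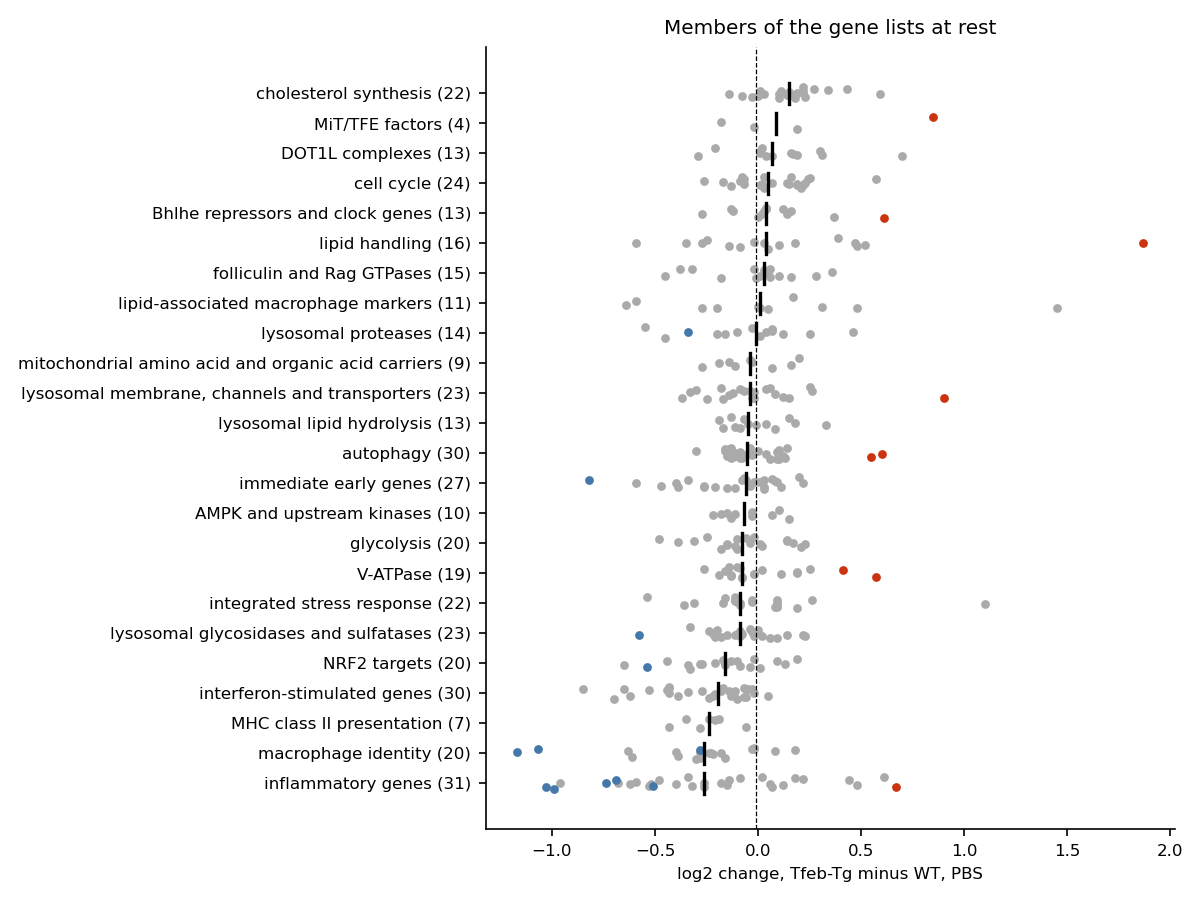
Log2 change between Tfeb-Tg and wild type under PBS (horizontal axis) for each tested member of the pathway lists, ordered by median, with the number tested in parentheses, a black bar at each median, a dashed line at the median of all genes, red for genes called higher, blue for lower and grey for the rest. Medians ran from -0.27 for inflammatory genes to 0.15 for cholesterol synthesis.

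The same genotypes were compared in the MSUc libraries, none of which enter the PBS means. All 11 libraries share 1 estimate of spread, so the calls at rest and with MSUc are not independent. With the PBS libraries fitted alone, 34 of the 55 rises and 12 of the 31 falls kept their call. Under MSUc 245 genes were higher (2.04%) and 172 lower (1.43%) in Tfeb-Tg. Of the 55 genes higher at rest, 40 were also called higher with MSUc, 52 had the same sign, and the median change was 0.80. Of the 31 lower at rest, 19 were called lower, 28 had the same sign, and the median was -0.50. None of the 86 was called in the opposite direction. Over all genes tested 57.4% had the same sign in both conditions.

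Several differences at rest were as large with crystals. Mgll was at 4.61 to 6.54 TPM in wild type and 22.3, 27.6 and 22.2 TPM in Tfeb-Tg under MSUc, 4.08-fold higher. Kit was at 6.49 to 7.48 TPM against 26.2 to 29.3 TPM, and Cdkn1c at 101 to 109 TPM against 341 to 426 TPM. The genotypes stayed apart in each of these genes whether their levels rose or stayed with MSUc. Cxcl2, 2.19-fold lower at rest, was at 235 to 239 TPM in wild type and 191 to 220 TPM in Tfeb-Tg under MSUc, without a call (log2 change -0.20, limma adjusted p = 0.51). Il1b likewise had a change of -0.02 under MSUc (limma adjusted p = 0.97). In neither was the difference between the 2 conditions itself called (limma adjusted p = 0.31 for Cxcl2 and 0.38 for Il1b).

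The difference of the transgene effect between MSUc and PBS was called for 12 genes (0.1%), 3 of which were among the 86. Besides Tfeb these were Fam198b and Slc40a1. Slc40a1, the iron exporter ferroportin, was at 37.7 and 36.5 TPM against 59.9, 62.0 and 63.3 TPM at rest, and at 71.0, 82.8 and 73.6 TPM against 62.2, 48.6 and 61.7 TPM under MSUc (difference -1.12 ± 0.15, SE, limma adjusted p = 0.021). Transgenic libraries were thus all higher at rest and all lower with crystals. Fam198b was at 19.4 and 20.4 TPM against 36.5, 37.4 and 41.4 TPM at rest, and 73.5 to 78.4 TPM against 82.4 to 84.6 TPM under MSUc. Gne, the first enzyme of sialic acid synthesis, was not called at rest (3.65 and 4.32 TPM against 5.31, 5.20 and 3.91 TPM) and stood at 3.96 to 5.34 TPM against at least 24.5 TPM under MSUc.

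**Figure D5:**
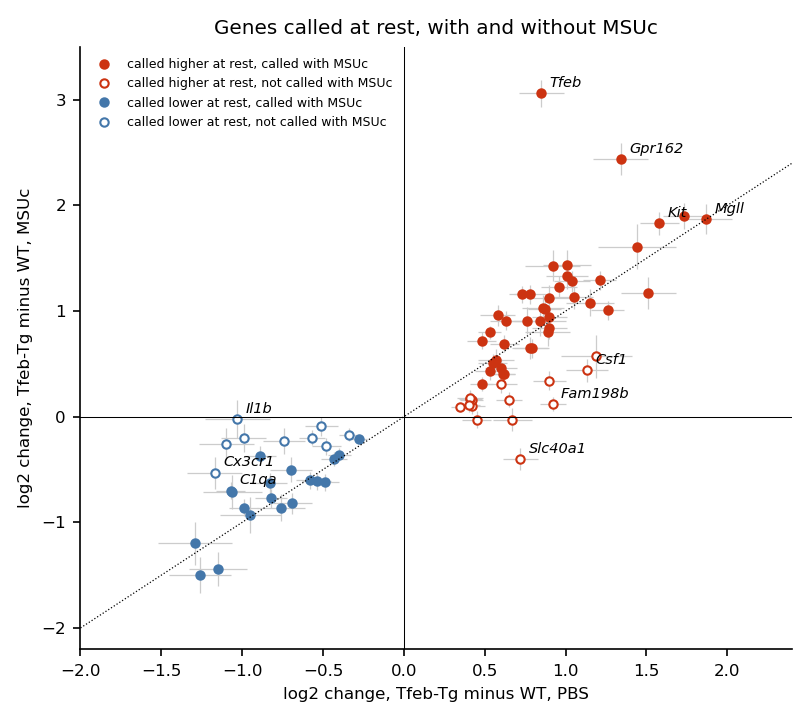
Log2 change between Tfeb-Tg and wild type under PBS (horizontal axis) and under MSUc (vertical axis) for genes called at rest with a transcript of at least 500 bases, with SE bars, red for higher and blue for lower at rest, filled where also called under MSUc, and a dotted line of equal change. Tfeb stands above the line at 3.06 under MSUc, and Slc40a1 has the opposite sign there at -0.40.

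The genes that differed at rest were also read in 2 separate experiments of the series. In Tfe3KO against Tfe3WT macrophages under PBS, with 3 libraries each, 126 genes were higher (0.985%) and 177 lower (1.38%). Of the 55 genes higher with the Tfeb transgene, 14 were higher in Tfe3KO and 0 lower, and of the 29 lower ones tested there, 2 were lower and 0 higher. Among the 14 were Cd4, Gpr162, Cd28, Padi2, Entpd1, Cd200r1, Mcoln2, Hpse, Anpep, Timp2, Sdc1, Gadd45b and Ptafr. Cd28 was 1.02 higher on the log2 scale in Tfe3KO, against 1.05 with the transgene. Tfeb had a change of 0.13 there (limma adjusted p = 0.55), and neither Mgll (0.43, adjusted p = 0.24) nor Kit (0.29, adjusted p = 0.34) was called. Tfe3 itself was at 94.2, 97.1 and 104 TPM in Tfe3WT and 70.0, 66.7 and 68.4 TPM in Tfe3KO, and the genotype field of the libraries titled Tfe3WT reads Tfe3KO, so the direction rests on titles.

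In wild-type macrophages of the particle experiment, MSUc against PBS called 18.1% of genes higher and 44.9% lower, with a median of -0.29 over all genes. Of the 55 genes higher with the transgene at rest, 36 were higher with MSUc there and 8 lower, with a median of 1.02. Csf1 (2.81), Mcoln2 (3.16), Fam198b (3.03) and Dio2 (2.31) were among those that rose by log2 change, while Entpd1 (-1.22) and Gpr162 (-1.14) fell. Of the 30 falls tested there, 12 were higher and 12 lower with MSUc. Cxcl2 (6.18) and Acod1 (5.47) rose there, and Cx3cr1 (-2.76) and C1qa (-1.08) fell.

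Deposited TFEB chromatin immunoprecipitation peaks gained with MSUc, 5667 in number, all lay more than 3 kb from a transcript start by the authors' annotation. The authors' nearest-gene assignment linked at least 1 such peak to 36 of the 55 genes higher at rest (65.5%) and 10 of the 31 lower (32.3%), where 18.4% of all genes tested had one. Among the rises Nedd4l had 10 peaks, Plpp3 9, Fam198b 7 and Kit 4, and the nearest to a start was that of Cipc at 3368 bases. Among the falls Tnfaip3 had 12. Mgll, Gpx3, Cd28 and Dio2 had none. The peaks were gained with crystals and were not measured in Tfeb-Tg cells here, and many of the same genes respond to MSUc, so no comparison of these shares was tested.

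The number of calls rested on few libraries. Leaving out either wild-type PBS library left 28 or 24 genes higher and 6 or 5 lower, and leaving out any one transgenic library left 29 to 42 higher and 17 or 18 lower. Placing the MSUc library whose treatment field reads PBS (TfebWT MSUc replicate 3) among the wild-type PBS libraries left 8 higher and 0 lower, and its first principal component of 37.5 lay with the other wild-type MSUc libraries (36.4 and 38.0) and not with PBS (-44.0 to -41.1).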

How the data were processed

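Poly-A RNA was made into strand-marked (dUTP) libraries, per the labels' protocols, and aligned and quantified with STAR and HOMER on mm10, per the submitters' processing notes, which give no versions. The deposited values are in TPM as far as they show: multiplied by transcript length they fall on even steps, 1 per read, to within 0.15 read, and this gave the recovered reads. How the authors chose 1 transcript per gene, and whether counting used strand, is not given in the sources used here. The deposited peak table gives distances to start sites by HOMER, per the file headers.

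Libraries were grouped by title. limma 3.58.1 (R 4.3.3) with a mean trend was fitted to log2(TPM + 1) over the 4 groups of the Tfeb experiment together, 11 libraries, which share 1 estimate of spread. Fold changes on this scale understate low genes. Tests are two-sided, with p adjusted over all genes tested. The other 2 experiments were fitted the same way, each alone. The fit was tested on simulated data. Alternatives were scaling, pseudocount, filter, the compared groups alone, a replicate block, omitted libraries and voom on recovered reads. With 2 wild-type libraries the precision is set mainly by their number.

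Named are the 4 MiT/TFE factors, the 15 largest called rises and falls with at least 5 TPM in the higher group, no overlap and a transcript of at least 500 bases, and up to 4 genes of smallest p per list. Some genes that met this rule are not reported here. Members and lists were chosen with earlier results of these data known. Outside this rule, and picked with values known, are other members of marker lists, Il1b, Tnfaip3, Fam198b, Slc40a1, Gne, C1qb, the genes listed for Tfe3KO and those listed with peaks. Akap2 and Pakap, which overlap, and the near copies Cd200r1 and Cd200r4 are uncertain. Of the particle columns 1 matched no sample and was not used. Figures used Python 3.11.15 and matplotlib 3.10.9.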

Additional observations from a re-analysis of the deposited data

Results flagged for a closer look

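For 12 genes the transgene effect differed between MSUc and PBS by the interaction of the limma fit, at an adjusted p under 0.05. Values are the effect under MSUc minus that under PBS, on the log2 scale. It was positive for Tfeb (2.21), Gne (2.12), Hk2 (1.97), Gna15 (1.62), Arhgef3 (1.43), Slamf8 (1.17), Igsf6 (0.88), Sgk1 (0.76) and Pirb (0.60). Of these 9 only Tfeb was called at rest. Hk2, hexokinase 2, was at 26.3 and 21.8 TPM against 22.5, 21.8 and 20.1 TPM at rest, and at 30.2 to 35.7 TPM against 106 to 120 TPM under MSUc. It was negative for Fam198b (-0.80), Slc40a1 (-1.12) and the short RNA gene Mir7219 (-4.63), which is listed at 0 in all 3 Tfeb-Tg MSUc libraries, so that its value depends on the pseudocount.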

How the results depend on the processing

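At rest no gene of the 86 changed sign under 14 of 15 alternatives, and 6 did when TfebWT MSUc replicate 3 was placed in PBS, among them Cx3cr1 (0.01), Csf1 (-0.03) and Ccl7 (-0.62). In that setting 8 genes were higher and 0 lower, and 8 of the 55 rises kept their call. Leaving that library out gave 42 higher and 17 lower. The compared groups alone gave 35 higher and 19 lower, and limma voom on recovered reads 126 and 118, which held 53 of the 55 rises and 27 of the 31 falls. Leaving out 1 PBS library gave 24 to 42 higher and 5 to 18 lower. Kit, Kdr, Mgll, Gpx3, Padi2 and Cd200r1 were called under all 15. With the setting that placed TfebWT MSUc replicate 3 in PBS left aside, 16 rises and 3 falls were called under all the rest. The call of Tfeb was lost without either wild-type PBS library, without transgenic replicate 1 or 2, and with the exchanged library. Other scalings, pseudocounts and filters kept both counts within 1.5 times.

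Correlations of deviations from the group mean ran from -0.045 to 0.186 between same-numbered libraries and from -0.193 to 0.137 between others. Most of the same-numbered ones were positive, and they do not settle whether replicate numbers pair the samples. With the replicate number as a block 53 genes were higher and 24 lower at rest, which held 45 of the 55 rises and 18 of the 31 falls. The block gave 238 higher and 174 lower under MSUc. Under MSUc leaving out 1 library gave 139 to 205 higher and 75 to 188 lower. The interaction without TfebWT MSUc replicate 3 gave 5 higher and 1 lower. The causes were not tested.

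Depth limits genes of few TPM and the short RNA genes. With 2 wild-type libraries a gene that was not called is not shown to be equal.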

Other observations

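Called genes lay beside each other in several places. Within 500 kb of one another there were 5 pairs of called genes, each of the same direction and with 0 tested genes between them. Such pairs were not counted among the other tested genes, so 5 is not shown to be many. Gpr162 and Cd4, both higher, lie on the minus strand 710 bases apart, and both were also higher in Tfe3KO. Kit and Kdr, both higher, lie 276.5 kb apart on opposite strands. Olfm1 and Mrps2, both lower, lie 237.3 kb apart. The remaining pairs were Cd200r1 with its near copy Cd200r4, and the overlapping Akap2 and Pakap. The part of the shared neighbourhood in these changes was not tested.

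Genes of several other functions were higher without belonging to any list. Hpse, heparanase, was at 73.5 and 69.9 TPM in wild type and 130, 130 and 136 TPM in Tfeb-Tg. Gyg, glycogenin, which primes glycogen synthesis, was at 160 and 152 TPM against 260, 250 and 266 TPM. Anpep, aminopeptidase N, was at 537 and 581 TPM against 842, 886 and 851 TPM. Steap3, a metalloreductase of iron uptake, was at 47.5 and 48.3 TPM against 69.8, 75.2 and 74.5 TPM. Cd274, which encodes PD-L1, was at 39.9 and 29.2 TPM against 55.2, 56.9 and 63.6 TPM. Among the falls, Folr2, a folate receptor, was at 192 and 185 TPM against 125, 137 and 119 TPM, and St3gal5, which makes the ganglioside GM3, at 97.0 and 94.7 TPM against 64.8, 71.4 and 68.9 TPM. These genes were chosen after their values were seen. Their calls held in 14 of 15 settings for Hpse, Gyg and Anpep, 12 for Folr2, 10 for Steap3, 7 for Cd274 and 6 for St3gal5. That of St3gal5 was lost without any 1 of the PBS libraries.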
